A study of Mus musculus with 8 samples.

Results

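The genes described here encode the endocytic receptor complex of the proximal tubule, the nephron segment that takes filtered protein back from the primary urine. They are Lrp2 (megalin), Cubn (cubilin), Amn (amnionless) and Dab2 (an adaptor protein). All probes whose RefSeq accession maps to these symbols were taken, which gave 5 probes for the 4 genes among 55681 probes on the array. Of these, 4 probes (1 per gene) passed the filter on dim probes and entered the comparison of 22638 genes.

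Nephron progenitor cells carrying a Six2CreEGFP transgene (a Cre recombinase joined to a green fluorescent protein, EGFP, under control of the progenitor gene Six2) were sorted by EGFP from C57BL/6 mouse kidneys at embryonic day 15.5. The wildtype group, Six2CreEGFP+; HDAC1&2 +/+, and the mutant group, Six2CreEGFP+; HDAC1&2 f/f, both carried the transgene, and floxed Hdac1 and Hdac2 alleles (2 histone deacetylases) are deleted where Cre is active. Each group had 4 pools, each measured on 1 of 8 Agilent arrays as the log2 ratio of the pool (Cy5) over RNA of wildtype pool 1 (Cy3). How many embryos went into a pool is not stated in the labels used here. The Six2 promoter drives Cre in the progenitors of the cap mesenchyme, and a deletion made there is passed on to the nephron cells that descend from them.

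Megalin is a very large receptor of the low-density lipoprotein (LDL) receptor family that spans the membrane and binds many filtered ligands, among them vitamin-binding proteins, albumin and lipoproteins. Cubilin has no membrane-spanning part of its own and is held at the cell surface by amnionless, and cubilin and megalin act together. Dab2 binds the cytoplasmic tail of megalin and links it to the clathrin coat, and it is also made in many cells that have no megalin. Megalin, cubilin and amnionless are markers of the differentiating proximal tubule rather than of the uncommitted progenitor. In bulk RNA from sorted cells, fewer cells of a type and less RNA per cell cannot be told apart.

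All 10 listed progenitor markers passed the filter, Six2 and Eya1 among them. So did all listed markers of interstitial stroma (10), endothelium (10), ureteric bud (10) and podocytes (8), so passing does not single out progenitors. Cited1, a progenitor gene, fell in the mutant (log2 difference -2.72 ± 0.13 SE, limma adjusted p = 0.00281). Hdac1 was lower in the mutant on its 3 probes in 3 of 3 pairs of same-numbered pools (-0.30 ± 0.09, -0.57 ± 0.14 and -0.40 ± 0.09, log2 ± SE), while Hdac2 had -0.13 ± 0.14 and was lower in 2 of 3 pairs. With the Cy5 channel alone, Hdac2 took the other sign (0.20). Pools 3 and 4 had a median absolute difference in Cy5 of 0.0565 for the wildtype arrays and 0.0604 for the mutant arrays. These are log2 values over 5807 probes, after the median shift between the arrays was removed. In Cy3 the same pairs of arrays had 0.0475 and 0.0476. The Cy5 values were within the 0.05 to 0.10 seen between arrays for the 1 reference RNA, where the highest came from pairs with wildtype pool 2. On this ground pools 3 and 4 were counted as 1 sample, which left 3 samples per group. The labels call all 4 pools biological replicates, so this count departs from the labels. The array of wildtype pool 2 stood apart, with 46884 probes well above background in Cy5 against 28158 to 33993 on the other 7 arrays. The array of mutant pool 1 was farthest from the others in Cy5 level. Its median absolute differences from the other 7 arrays, taken in the same way, were 0.298 to 0.401 (log2), against 0.0565 to 0.188 between all other pairs of arrays.

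Promoter sequences of Lrp2, Cubn and Amn are shown because their mutant values were lower in all 3 pairs of same-numbered pools. Each is the RefSeq window of 300 bases (GRCm38.p6), from 250 bases before to 50 after the start of transcription, written 5′ to 3′ on the strand of the gene. The Lrp2 window is chr2:69585980-69586279 (minus strand), that of Cubn chr2:13491827-13492126 (minus strand) and that of Amn chr12:111270846-111271145 (plus strand). Capitals mark every match, on either strand, to 5 short motifs chosen after the values were known. The core letters of sites for the tubule transcription factors HNF1 and HNF4 were taken as GTTAAT for HNF1, and as CAAAG for HNF4. The others were the E-box, taken as CACGTG, the GC box, which reads GGGCGG, and the TATA box, with the letters TATAAA.
Lrp2: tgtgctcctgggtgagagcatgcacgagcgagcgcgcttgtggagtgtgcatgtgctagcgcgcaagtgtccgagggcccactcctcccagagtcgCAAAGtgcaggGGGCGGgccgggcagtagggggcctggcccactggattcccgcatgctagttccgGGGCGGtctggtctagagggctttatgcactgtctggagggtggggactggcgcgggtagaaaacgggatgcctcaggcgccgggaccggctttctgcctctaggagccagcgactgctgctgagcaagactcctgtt
Cubn: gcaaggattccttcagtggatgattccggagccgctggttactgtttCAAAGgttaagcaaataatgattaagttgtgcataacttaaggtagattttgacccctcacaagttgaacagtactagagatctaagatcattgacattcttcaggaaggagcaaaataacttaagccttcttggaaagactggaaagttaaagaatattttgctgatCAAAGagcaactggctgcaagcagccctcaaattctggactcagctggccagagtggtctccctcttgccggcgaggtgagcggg
Amn: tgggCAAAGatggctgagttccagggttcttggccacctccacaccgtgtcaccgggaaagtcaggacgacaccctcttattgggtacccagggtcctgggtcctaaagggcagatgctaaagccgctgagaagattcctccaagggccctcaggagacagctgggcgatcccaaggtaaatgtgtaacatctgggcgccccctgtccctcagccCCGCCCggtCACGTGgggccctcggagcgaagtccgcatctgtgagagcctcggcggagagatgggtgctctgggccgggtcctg

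CAAAG was the only one of the 5 motifs found in all 3 windows, with 1 match in Lrp2, 2 in Cubn and 1 in Amn. It also lay in 53.9% of the 32851 windows of 27025 genes, so its presence is common. GGGCGG (35.7% of all windows) had 2 matches in the Lrp2 window and 1 in the Amn window, the latter on the opposite strand, and none in that of Cubn. CACGTG (7.15%) occurred once, 26 bases before the Amn start. GTTAAT (7.1%) and TATAAA (13.6%) matched in none of the 3, and no match overlapped another. The windows differed in base composition: GC made up 65% of the Lrp2 window, 62.3% of the Amn window and 44.3% of the Cubn window. CpG pairs numbered 20, 15 and 5 in the same order, and 73.5%, 65.4% and 38% of all windows held fewer. The Dab2 entry has 2 start sites, whose windows held 2 and 19 CpG pairs. One of them held the only GTTAAT of the 4 genes.

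Lrp2 (probe A_52_P285470, NM_001081088) had log2 ratios of -0.06, -1.69 and 1.10 in wildtype pool 1, pool 2 and pools 3 and 4. In the mutant the values were -1.04, -2.24 and -0.21 in the same order. Every mutant value lay below the wildtype value of the same number, but the groups overlapped, since wildtype pool 2 was lower than 2 of the 3 mutant samples. The mean was -0.21 ± 1.40 in wildtype and -1.16 ± 1.02 in mutant (SD, n = 3 each). The difference was -0.95 ± 0.76 (log2 ± SE; 95% interval -2.74 to 0.84), or 51.8% of the wildtype level, and did not pass the threshold (limma adjusted p = 0.819; exact permutation p = 0.4, 2-sided, smallest possible 0.1). With the pool number as a block the same difference had an SE of 0.16 (95% interval -1.35 to -0.55; adjusted p = 0.117).

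Cubn was represented by 2 probes of NM_001081084. On the brighter, A_55_P2047639, wildtype pool 1, pool 2 and pools 3 and 4 had log2 ratios of 0.27, -1.20 and 1.39, and the mutant had -0.98, -1.81 and -0.49. The order of the samples within each group was that of Lrp2: pools 3 and 4 were highest and pool 2 lowest. The groups overlapped here as well, through wildtype pool 2. Means were 0.15 ± 1.30 in wildtype and -1.09 ± 0.67 in mutant (SD, n = 3 each), a difference of -1.25 ± 0.64 (SE; 95% interval -2.76 to 0.27; limma adjusted p = 0.761, exact permutation p = 0.3). That is 42.1% of the wildtype level, the lowest share of the 4 genes. With the block the SE was 0.24 (95% interval -1.86 to -0.64; adjusted p = 0.16).

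The other Cubn probe, A_55_P2047638, was well above background on 2 of 4 wildtype arrays (pools 3 and 4) and on 0 of 4 mutant arrays, and so was not tested. Its log2 ratios were 0.05, 0.04 and 0.44 in the wildtype samples and -0.13, -0.05 and 0.16 in the mutant samples. In Cy3 it was well above background on none of the 8 arrays, so neither a fold nor a direction is read from it.

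Amn (probe A_51_P343350, NM_033603), whose product carries cubilin to the membrane, had log2 ratios of -0.13, -2.10 and 0.33 in wildtype pool 1, pool 2 and pools 3 and 4. The mutant samples had -1.20, -2.92 and -0.71. Again pool 2 was lowest in both groups, and wildtype pool 2 lay below 2 of the 3 mutant samples, so the groups overlapped. Means were -0.63 ± 1.29 in wildtype and -1.61 ± 1.16 in mutant (SD, n = 3 each). The difference was -0.98 ± 0.76 (SE; 95% interval -2.77 to 0.82), or 50.9% of the wildtype level (limma adjusted p = 0.819, exact permutation p = 0.4). Among the 4 genes Amn had the most even pair differences: -1.07 (pool 1), -0.82 (pool 2) and -1.04 (pools 3 and 4), with an SD of 0.14. With the block its SE was 0.09 (95% interval -1.21 to -0.74) and its adjusted p 0.0542, just above the threshold of 0.05.

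Dab2 (probe A_55_P1977473, NM_023118) had log2 ratios of 0.19, -0.14 and 0.47 in wildtype and 0.18, -0.10 and 0.17 in mutant, in the same order of pools. The values of pools 1 and 2 were nearly the same in both groups, and those of pools 3 and 4 were 0.30 lower in the mutant. Means were 0.17 ± 0.30 and 0.08 ± 0.16 (SD, n = 3 each). The difference was -0.09 ± 0.17 (SE; 95% interval -0.49 to 0.31; limma adjusted p = 0.91, exact permutation p = 0.8), or 94.1% of the wildtype level, and it took the other sign (0.04) with the Cy5 channel alone. With the block the 95% interval was -0.35 to 0.17 (adjusted p = 0.725).

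**Figure D1:**
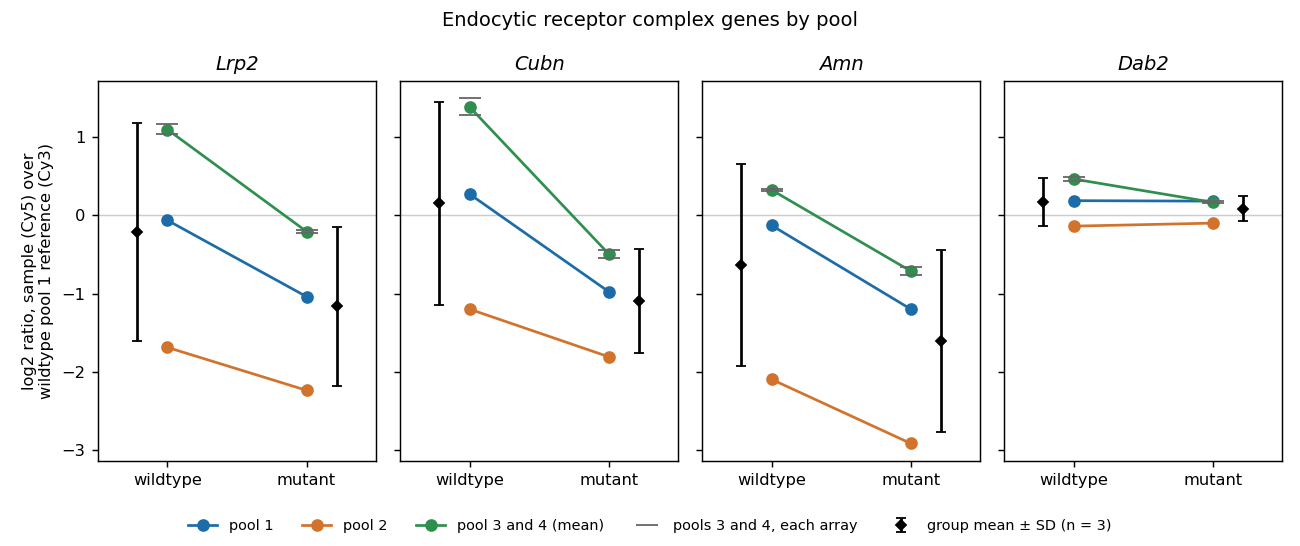
Log2 ratio of each sample (Cy5) over the wildtype pool 1 reference (Cy3) for Lrp2, Cubn (brighter probe), Amn and Dab2, with lines joining same-numbered pools, grey dashes for the single arrays of pools 3 and 4, and black diamonds with bars for the group mean ± SD (n = 3). Each line of Lrp2, Cubn and Amn runs downward from wildtype to mutant while the 3 lines lie far apart, and the Dab2 lines are nearly level.

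Of the 4 genes, 0 passed an adjusted p of 0.05 in limma without the block, where 0.0442% of all genes tested did so and 0.0221% did so as lower in the mutant. None of the 4 had an unadjusted p under 0.05 in that fit, against 7.24% of all genes. With the block, 0 of 4 passed, where 0.15% of all genes passed and 0.115% passed as lower. The unadjusted p was under 0.05 for 3 of 4 (Lrp2, Cubn and Amn), against 12.7% of all genes. The call depended on the scaling of the arrays. With the block and each array centred on its median in place of the loess fit, Lrp2 (-0.89, adjusted p = 0.0496), Cubn (-1.29, adjusted p = 0.00137) and Amn (-0.96, adjusted p = 0.0165) passed, a rule under which 0.552% of all genes passed as lower. The SEs in that fit were nearly alike: 0.225, 0.231 and 0.216, and 0.216 for Dab2. With the block alone they were 0.157, 0.241, 0.0944 and 0.104 in the same order. Lrp2 and Amn thus passed with a larger SE and a smaller difference than under the block alone. With the block and the ratios scaled between arrays, Amn passed (-1.04, adjusted p = 0.0314), Lrp2 had an adjusted p of 0.0513 and Cubn of 0.0845, and 0.499% of all genes passed as lower.

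In size the differences of 3 of the genes lay at the low end of the array. Among the 22638 genes, 0.216% had a more negative difference than Cubn, 0.393% than Amn and 0.415% than Lrp2, against 29.8% for Dab2. The median over all genes was 0.00 (log2), and 49.5% of all genes had a lower mutant mean, the share to set beside the counts of the lists below. Lrp2, Cubn and Amn were lower in the mutant in 3 of 3 pairs, as were 3885 genes (17.2%) on the array, and Dab2 was lower in 2 of 3. By pair, the Lrp2 level in wildtype was 1.98-fold that in mutant for pool 1, 1.47-fold in the pool 2 pair and 2.48-fold in the pair of pools 3 and 4. For Cubn the folds were 2.38, 1.52 and 3.69, and for Amn 2.10, 1.76 and 2.05. The pair of pool 2 had the smallest fold for each of these 3 genes.

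The spread between pools of one group was larger than the difference between groups. From the lowest to the highest wildtype sample, Lrp2 spanned 2.79, Cubn 2.60 and Amn 2.42 log2 units. Wider wildtype ranges were found for 0.085%, 0.112% and 0.152% of all genes. In the mutant the ranges were 2.03, 1.32 and 2.20. Dab2 spanned 0.60 in wildtype, a range that 6.45% of all genes exceeded. Repeat measurements of 1 RNA varied less. The Cy3 level of Lrp2, which holds 1 RNA on all 8 arrays, ranged from 10.89 to 11.44 (log2), while its Cy5 level ranged from 8.89 to 12.45. For Amn the Cy3 range was 0.53 and the Cy5 range 3.41, and for Cubn they were 0.88 and 3.53. For Dab2 both were small (0.54 and 0.68).

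On the array of wildtype pool 1, Cy5 and Cy3 held one and the same RNA, so a ratio away from 0 there is measurement error. This array gave -0.06 for Lrp2, -0.13 for Amn, 0.19 for Dab2 and 0.27 for Cubn. The size of this ratio was 0.09 at the median of all genes and 0.27 at the 95th percentile, so the Cubn value lay near that percentile and the others below it.

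Leaving out single samples moved the differences of the 3 genes, in some cases by over 1.5 times, without turning their direction. Without wildtype pool 1 the values changed less (-0.87 for Lrp2, -1.19 for Cubn and -0.72 for Amn). Without wildtype pool 2, whose array stood apart, Lrp2 had -1.68, Cubn -1.93 and Amn -1.71. Without wildtype pools 3 and 4 the values were -0.29, -0.63 and -0.50. Without mutant pool 2 Lrp2 had -0.41, Amn -0.32 and Cubn -0.89, and without mutant pools 3 and 4 Lrp2 had -1.43. Without mutant pool 1, whose array was farthest from the others in Cy5, the values were -1.01 for Lrp2, -1.31 for Cubn, -1.18 for Amn and -0.14 for Dab2. None of these fits put any of the 3 genes past the threshold. Leaving out wildtype pool 2 gave Dab2 -0.24, its most negative value. Pool 2 was lowest for Lrp2, Cubn and Amn in the mutant too, and there the array had 30470 probes well above background, within the range of the others. Whether the state of the wildtype pool 2 array bears on the values of that pool was not tested.

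The 6 pairs of genes were compared by the change of one relative to the other within each sample. The difference of changes was -0.86 for Lrp2 against Dab2 (pairs -0.98, -0.59 and -1.01; exact permutation p = 0.4), -1.16 for Cubn against Dab2 (pairs -1.24, -0.65 and -1.59; exact permutation p = 0.2) and -0.89 for Amn against Dab2 (pairs -1.06, -0.86 and -0.74; exact permutation p = 0.4). Each of the 3 receptor genes was thus lower relative to Dab2 in 3 of 3 pairs, with SDs over pairs of 0.23, 0.48 and 0.16. These comparisons share the Dab2 values and the samples, so they are not independent. They largely restate that the 3 genes were lower in 3 of 3 pairs while Dab2 changed little. The exact test over 3 against 3 samples takes no account of the pairs and cannot go below p = 0.1, so it could not show a difference at 0.05. Among the receptor genes themselves the differences of changes were 0.30 for Lrp2 against Cubn, 0.03 for Lrp2 against Amn and -0.27 for Cubn against Amn. The adjusted values over the 6 pairs were 0.6 to 1 (exact permutation tests, Benjamini-Hochberg), and the differences among the 3 were smaller than their SD over pairs except for Lrp2 against Cubn (SD 0.26).

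Over the 6 samples the ratios of Lrp2, Cubn and Amn correlated with each other at r = 0.94 to 0.97 and with Dab2 at r = 0.90 to 0.94. These points share the reference RNA, the slide and the pool numbers, and 1.71% to 2.42% of 14820 named genes had r above 0.9 with one of the 4. The genes most like Lrp2 were Agxt2 (r = 0.996), an aminotransferase gene, Ppm1h (0.996), a phosphatase gene, Lilra6 (0.993) and Mep1a (0.993), which encodes a subunit of the brush border protease meprin. For Cubn they were Cideb (0.996), Slc16a12 (0.996), Sgk2 (0.995), Fbp2 (0.994) and Tmem229a (0.994). For Amn they were Ly6c1 (0.998), Perp (0.995), the folate receptor gene Folr1 (0.994), Prss12 (0.994) and Hdc (0.993), which encodes histidine decarboxylase. For Dab2 they were Atp6v0a4 (0.993), a subunit of the proton pump, Mettl15 (0.991), Rtl8c (0.989), Cav3 (0.988) and Fermt1 (0.987). No gene named here for one of the 4 was named for another.

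Relatives of megalin had values around or above 0. The list of the LDL receptor family and its chaperone had 11 of 12 genes tested, of which 0 passed in limma with or without the block (unadjusted p under 0.05: 0 without and 2 with the block). The mutant mean was higher for 9 and lower for 2, with a median of 0.13, which ranged from 0.01 without wildtype pool 2 to 0.38 with the Cy5 channel alone. Lrp6, a Wnt co-receptor, had 0.04 ± 0.30 and Vldlr, the receptor of very-low-density lipoprotein, 0.36 ± 0.19 (log2 difference ± SE). Lrp8, a reelin receptor, had 0.32 ± 0.15. The largest negative value was that of Lrpap1, the chaperone that keeps ligands off megalin on its way to the surface (-0.24 ± 0.19).

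Genes of the adaptor and clathrin machinery, in which Dab2 works, had small values as well. Of 21 adaptor and coat genes tested, 0 passed in either fit (unadjusted p under 0.05: 0 without and 1 with the block), 14 had a higher and 7 a lower mutant mean, and the median was 0.05. Under 12 other settings the median ranged from -0.01 to 0.13. The scaffold gene Itsn1 had 0.05 ± 0.10 and the epsin gene Epn1 0.10 ± 0.10. The largest difference was that of Ap2b1, a subunit of the clathrin adaptor AP-2 (-0.46 ± 0.40). Its pair differences were -1.44 in pool 1, -0.04 in pool 2 and 0.10 in pools 3 and 4. The mutant array of pool 1 was farthest from the others, and whether that bears on the value was not tested. Hip1r, which ties coated pits to actin, had -0.29 ± 0.17.

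The 26 genes of endosome acidification and recycling had a median of 0.01, with 15 higher and 11 lower mutant means, and 0 passed in either fit (unadjusted p under 0.05: 1 without and 2 with the block). The median ranged from -0.05 to 0.12 over 12 other settings. The lysosomal membrane gene Lamp1 had 0.15 ± 0.10 and the sorting nexin gene Snx17 -0.06 ± 0.09. Rab11a, a GTPase of recycling endosomes, had -0.36 ± 0.30, with its largest pair difference again in pool 1 (-0.98). The part of the mutant pool 1 array in this was not tested. Ctns, the lysosomal cystine transporter, had 0.30 ± 0.15.

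Of the listed ligands and vitamin handling genes, 12 of 18 were tested. Gc, which encodes the vitamin D binding protein taken up by megalin, fell with the block (-1.43 ± 0.10 SE, adjusted p = 0.0322; pairs -1.40, -1.61 and -1.27) but did not pass without it (adjusted p = 0.58). It was the 1 call among the 12, and 0.115% of all genes were called lower with the block. Its call was lost in limma with the block under an offset of 16 (adjusted p = 0.0664), under the deposited signals (adjusted p = 0.248), with the Cy5 channel alone (0.62), with a trended robust variance (0.15) and without the pair of pool 1 (0.0728) or of pools 3 and 4 (0.158), while its difference stayed between -2.37 and -1.05. The other 11 did not pass in either fit (unadjusted p under 0.05 for 2 of the 12 without and 4 with the block), and the median of the list was -0.04, from -0.15 to 0.06 under other settings. The ferritin genes Ftl1 and Fth1 had -0.10 ± 0.10 and 0.09 ± 0.11, and Clu, the chaperone clusterin, had -0.43 ± 0.27. Cyp24a1, the vitamin D degrading enzyme, was well above background on no array.

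Many other genes of the proximal tubule had values in the range of the 3 receptor genes. Of 19 proximal tubule identity genes tested of 20 listed (Hnf4g was well above background on no array), 15 had a lower and 4 a higher mutant mean, 13 were lower in all 3 pairs (68.4%, against 17.2% of all genes), and the median was -0.71, against 0.00 over all genes. Under other settings the median ranged from -1.03 with the deposited signals to -0.38 without wildtype pools 3 and 4. In limma 0 passed without the block (4 had an unadjusted p under 0.05), and with the block 2 fell, among them Pdzk1, a scaffold protein of apical transporters (-1.46 ± 0.10 SE, adjusted p = 0.0317). Over all genes 0.115% were called lower with the block. At an unadjusted p under 0.05 with the block, 11 of the 19 were lower and 1 was higher (63.2%, against 12.7% of all genes). The call of Pdzk1 was lost with the block under the deposited signals, with the Cy5 channel alone, with a trended robust variance and without the pair of pool 1 or of pools 3 and 4. The phosphate transporter gene Slc34a1 had -1.56 ± 0.99, with pair differences of -2.05, -0.58 and -2.05, smallest in pool 2 as for the receptor genes. The peptidase gene Anpep (-0.20 ± 0.13) was not among the low values.

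**Figure D2:**
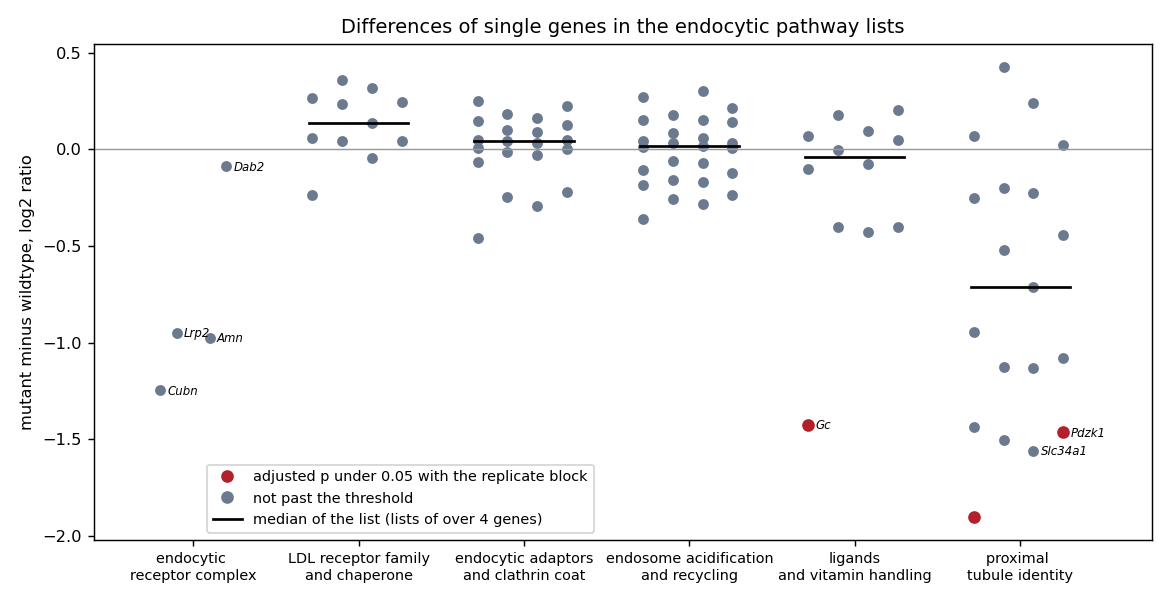
Log2 difference of mutant minus wildtype for each tested gene of the receptor complex and of 5 related lists, with red points for genes of adjusted p under 0.05 with the replicate block and black lines for list medians. Lrp2, Cubn and Amn sit near -1 beside many proximal tubule genes, while the family, adaptor and endosome lists stay within 0.5 of 0. Dab2, listed at -0.09, had the other sign with the Cy5 channel alone.

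The order of pools seen for the receptor genes (pool 2 lowest, pools 3 and 4 highest in both groups) was also that of segment markers. Interstitial stroma, endothelium and ureteric bud markers had the same order, over a smaller range in wildtype. Their medians were -0.10, -0.33 and -0.30 in wildtype pool 2 and 0.10, 0.03 and 0.03 in wildtype pools 3 and 4. In the mutant they were 0.07, 0.00 and -0.14 in pool 2 and 0.52, 0.24 and 0.40 in pools 3 and 4. The proximal tubule list had median log2 ratios of 0.01, -0.79 and 0.46 in wildtype pool 1, pool 2 and pools 3 and 4, and -0.89, -0.91 and -0.37 in the mutant samples. Its summed Cy5 level was 27830 to 61400 in wildtype and 17210 to 32580 in mutant, lowest in pool 2 and highest in pools 3 and 4 of both groups. Podocyte markers (8 of 8 tested, 7 with a lower mutant mean, median difference -0.57) and loop of Henle and distal tubule markers (7 of 8 tested, 5 lower, median -0.91) also had their lowest medians in pool 2 and their highest in pools 3 and 4 of each group. Their summed Cy5 levels were 112200 to 121400 in wildtype and 104700 to 157500 in mutant for podocyte markers, led by Cdkn1c (0.11 ± 0.19), and 21040 to 22630 and 21300 to 26230 for loop and distal markers, led by Wfdc2 (0.25 ± 0.15) and Irx3 (0.15 ± 0.22). Kcnj1, a potassium channel gene of the loop and distal segments, fell with the block (-1.59 ± 0.12 SE, adjusted p = 0.0328; 0.671 without the block). Its call was lost with the block under the deposited signals (adjusted p = 0.206), with the Cy5 channel alone (0.62), with a trended robust variance (0.133) and without the pair of pool 1 (0.0728) or of pools 3 and 4 (0.167). The part that a differing share of differentiated cells has in the receptor gene values was not tested.

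Progenitor markers did not follow that order of pools. Their median log2 ratio was -0.03 in wildtype pool 1, 0.11 in wildtype pool 2, where Lrp2, Cubn and Amn were lowest, and -0.01 in wildtype pools 3 and 4. In the mutant it was -0.29, 0.01 and -0.44 in the same order, so pool 2 was highest and pools 3 and 4 lowest. Over all 10, 8 had a lower mutant mean (median -0.24), against 49.5% of all genes. Their summed Cy5 level was 121900 to 146900 in wildtype and 89580 to 105100 in mutant. The brightest, Eya1 and Six2, had 0.05 ± 0.10 and -0.13 ± 0.14. Interstitial stroma markers were higher in the mutant mean for 10 of 10 (median 0.24). Their summed Cy5 level was 217600 to 263700 in wildtype and 258600 to 316000 in mutant. The brightest of them were Col1a2 (0.24 ± 0.17) and Aldh1a2 (0.34 ± 0.16), and the largest difference was that of Col1a1 (0.50 ± 0.18). Endothelium markers (10 tested, median 0.19; 64140 to 72120 and 72730 to 91450, with Egfl7 at 0.30 ± 0.14 and Cd34 at 0.27 ± 0.14), macrophage markers (9 tested, median 0.04; 11180 to 12660 and 9528 to 14130, with Csf1r at 0.01 ± 0.25 and Pf4 at 0.22 ± 0.17) and ureteric bud markers (10 tested, median 0.20; 14330 to 17940 and 15680 to 20160, with Gata3 at 0.22 ± 0.10 and Krt19 at 0.03 ± 0.45) were not lower in the mutant by their medians, though the macrophage median ranged from -0.12 to 0.27 over other settings. Whether any of these moves bears on the receptor genes was not tested.

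**Figure D3:**
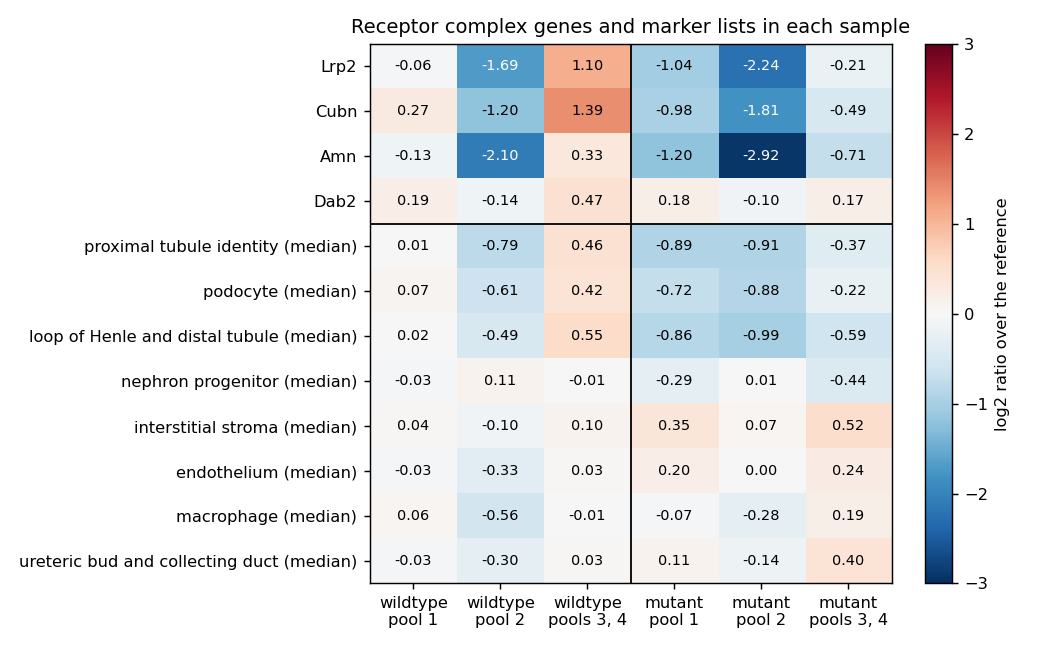
Log2 ratio over the reference in each of the 6 samples (columns) for the 4 receptor complex genes (brighter probe of Cubn) and for the median of each marker list (rows), with blue for low and red for high ratios. The columns of pool 2 are the darkest blue for Lrp2, Cubn and Amn in both groups, and the proximal tubule, podocyte and loop of Henle medians are low there as well. The medians of the stroma, endothelium, macrophage and ureteric bud lists are also lowest in pool 2 of each group.

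**Figure D4:**
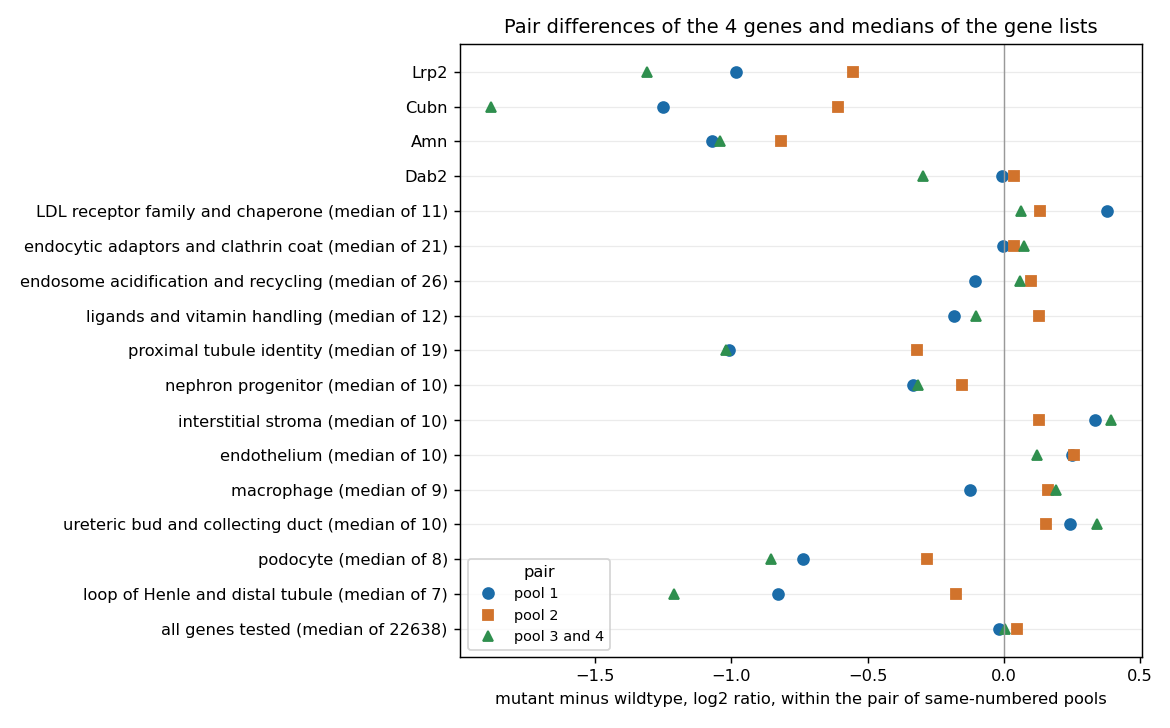
Log2 difference of mutant minus wildtype within each pair of same-numbered pools, for the 4 genes and for the medians of the gene lists and of all 22638 genes tested. The 3 pairs of Lrp2, Cubn and Amn lie between -1.88 and -0.56, and the pool 2 pair (squares) is nearest to 0 for each of them and for the proximal tubule, podocyte and loop of Henle lists. The pool 2 pair is also nearest to 0 for the progenitor, interstitial stroma and ureteric bud lists. Dab2 lies between -0.30 and 0.04, and its mean changed sign with the Cy5 channel alone.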

How the data were processed

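Sorted progenitors from 4 wildtype and 4 mutant pools were hybridised from 0.5 µg of total RNA. Per the file headers, the deposited scanner output gives linear spot intensity, read with Agilent Feature Extraction (version 10.7.3.1). The deposited value table holds log10 ratios of Cy5 over Cy3 and matched the scanner ratios within 0.005, so direction and base are known and only its median centring is unstated (column medians 0 on 7 arrays and 0.00483 on wildtype pool 2).

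Median spot signals were background-corrected (normexp, offset 50), loess-normalized within arrays, cleared of control and outlier spots and averaged per probe. Probes were kept (30326) where 3 or 4 of the 4 arrays of a group were well above background in Cy5, and each gene was taken by its probe of highest mean Cy5 level. The groups were compared with limma 3.58.1 (R 4.3.3; lmFit and eBayes, 2-sided, Benjamini-Hochberg over 22638 genes, 14983 of them with a symbol), and by exact permutation. The number of arrays limits precision. Same-numbered samples deviated from their group means together (r = 0.50, 0.54 and 0.53), and differently numbered samples had r of -0.08 to -0.45. Deviations from a group mean sum to 0, so positive same-number values force such negative ones, which add no separate support. Given the same-number values, the pool number was also fitted as a block, a pairing that comes from the labels' numbers and these correlations. All arrays lie on 1 slide from 1 scan, with mutant arrays in one row and wildtype arrays in the other, so slide row and genotype cannot be told apart. The genes and lists were chosen with earlier results of these data known. Genes named are the 4, in each list those past the threshold with or without the block, the 2 brightest and the 2 of largest difference (of marker lists the 2 brightest), and the 5 most correlated with each of the 4. Lrpap1 and Cited1 were chosen after their values were seen. Some genes that this rule names are not reported here. Simulated data with known changes were used to test the comparison.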

Additional observations from a re-analysis of the deposited data

Results flagged for a closer look

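Dab2 in the mutant arrays had 1 value apart from the others. Mutant pool 2 had a log2 ratio of -0.10, while mutant pools 1, 3 and 4 had 0.18, 0.18 and 0.15. The gap to the nearest value was 0.893 of the whole range of the 4 arrays, above the 95% critical value of Dixon's test. About 1 in 20 groups of 4 is marked this way by chance, and 10 groups (5 probes in 2 groups) were looked at. The 4 arrays enter here singly. With pools 3 and 4 counted as 1 sample the mutant has 3 values (0.18, -0.10 and 0.17), too few for this rule, so the mark rests on treating pools 3 and 4 as separate.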

How the results depend on the processing

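Lrp2, Cubn and Amn kept a negative sign under all 33 alternatives, from -1.68 to -0.29, -1.93 to -0.63 and -1.71 to -0.32, and stayed short of the threshold except in the combinations of the replicate block with a scaling (added after the data were seen): with median centring Lrp2 passed at -0.89, Cubn at -1.29 and Amn at -0.96, and with scaling between arrays Amn passed at -1.04. The replicate block alone changed no call of the 4 genes. Dab2 reversed in 5 of 33, at 0.037 with the Cy5 channel alone (with and without the replicate block) and 0.0164 with the replicate block without the pair of pools 3 and 4, and it ranged from -0.243 to 0.0582 when single replicates were left out (0.0582 without wildtype pools 3 and 4, 0.00305 without mutant pool 2). The cause was not tested. Of all genes, 10 passed in limma, against 34 with the replicate block, 257 with 8 separate arrays, 1 with the Cy5 channel alone, 5 with a trended robust variance and 1 to 10 without single replicates. With the replicate block, 0 passed without the pair of pool 1 (unadjusted p under 0.05: 3171 genes), 47 without that of pool 2 and 0 without that of pools 3 and 4 (1495). With the block and a setting added after the data were seen, 22 passed with offset 16, 0 with Agilent's processed signals (2908 unadjusted), 0 with the deposited value table (2912), 183 with median centring, 162 with scaling between arrays, 0 with the Cy5 channel alone (1329) and 2 with a trended robust variance. The Cy5 channel alone moved the median of all genes from 0.00 to 0.13. The 3 samples per group limit what these fits can show.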
